A study of Homo sapiens with 4 samples.

Results

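The genes described here are the nuclear-encoded subunits of oxidative phosphorylation, measured in HT1080 cells that lack KDAC8. HT1080 is a human fibrosarcoma cell line. KDAC8, also called HDAC8, is a class I lysine deacetylase. The series holds 1 group of 4 replicate RNA-seq libraries, all with the genotype KDAC8 knockout and no added agent named in the labels. No parental or other control library was analysed here, so no comparison with cells that have KDAC8 was made. Neither how the gene was knocked out nor whether the cells are 1 clone was given in the sources used here. Nothing says that the replicates came from separate cultures, so tests between libraries measure only the spread of these samples, and that spread may be technical. Members were found by gene name, through the prefixes NDUF, SDH, UQCR, COX4 to COX8 and ATP5, after names with a hyphen or a pseudogene ending were dropped. Of 60675 rows in the table, 179 fitted the name patterns, 93 of these were dropped as pseudogene names and 86 remained. They comprised 38 genes of complex I, 4 of complex II, 9 of complex III, 17 of complex IV and 18 of complex V.

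Oxidative phosphorylation takes place in the inner mitochondrial membrane. Complexes I and II pass electrons from NADH and succinate to ubiquinone, complex III passes them on to cytochrome c, and complex IV hands them to oxygen. Complexes I, III and IV pump protons as they do so, and complex V, the ATP synthase, uses the returning protons to make ATP. Complexes I, III, IV and V are built from subunits of both genomes, since a small set of their proteins is encoded by mitochondrial DNA, while complex II is encoded by the nucleus alone. Nuclear-encoded subunits are made in the cytosol and imported. Several subunits of complex IV have a second gene that is known to be used in muscle, lung, testis or oxygen-poor cells.

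Total counts were 39454210, 43722295, 45828807 and 41241908 in replicates 1 to 4, and the 86 genes took 0.598% to 0.682% of them. Levels are given as CPM, in which counts are brought to the same effective library size, and series of 4 values follow the order of replicates 1 to 4. Errors are SD over the 4 libraries. A count of 0 in a library allows up to 0.0662 to 0.0742 CPM (3 counts), for counting error only. HDAC8 itself stood at 1.98, 2.11, 2.10 and 2.53 CPM (2.18 ± 0.242 CPM, SD, n = 4), a count over the whole gene that does not check the knockout. Of 6 mesenchymal markers 5 were detected, among them VIM at 4701 ± 283 CPM, and THY1 was not, at 0.223, 0, 0.251 and 0.237 CPM. None of 4 epithelial, 4 haematopoietic, 3 endothelial, 6 muscle and 5 testis germ cell markers was detected. The summed level of each of these 5 lists stayed between 0 and 0.895 CPM in every library, and EPCAM, CDH1, KRT5, CKM, MYH7, MYOD1, DDX4, DAZL, PRM1 and TNP1 were at 0 counts in all 4.

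Almost the whole set was transcribed. Genes that reached 1 CPM in each of the 4 libraries were counted as detected, and 78 of the 86 members did, against 21.4% of all rows. All rows include pseudogenes and non-coding genes, so that share is not a like background for the members. Detected were 38 of 38 genes of complex I, 4 of 4 of complex II, 8 of 9 of complex III, 11 of 17 of complex IV and 17 of 18 of complex V. The 78 genes had a median of 59.3 CPM and ran from 7.84 ± 0.349 CPM for NDUFB1, an accessory subunit of complex I, to 724 ± 54.2 CPM for ATP5B, the catalytic beta subunit of the ATP synthase. CPM is not divided by length, so this is a range of counts. The smallest count behind any detected value was 306. Of the 8 genes below detection, 6 belonged to complex IV. COX4I2, COX6A2, COX7B2 and COX8C had 0 counts in each library. COX6B2 had 0.318 ± 0.0676 CPM, COX7A1 0.0940 ± 0.0186 CPM, ATP5L2 0.0531 ± 0.0449 CPM and UQCRHL 0.0245 ± 0.0350 CPM, with highest libraries of 0.355, 0.119, 0.118 and 0.0742 CPM. The last pair are intronless copies of ATP5L and UQCRH.

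**Figure D1:**
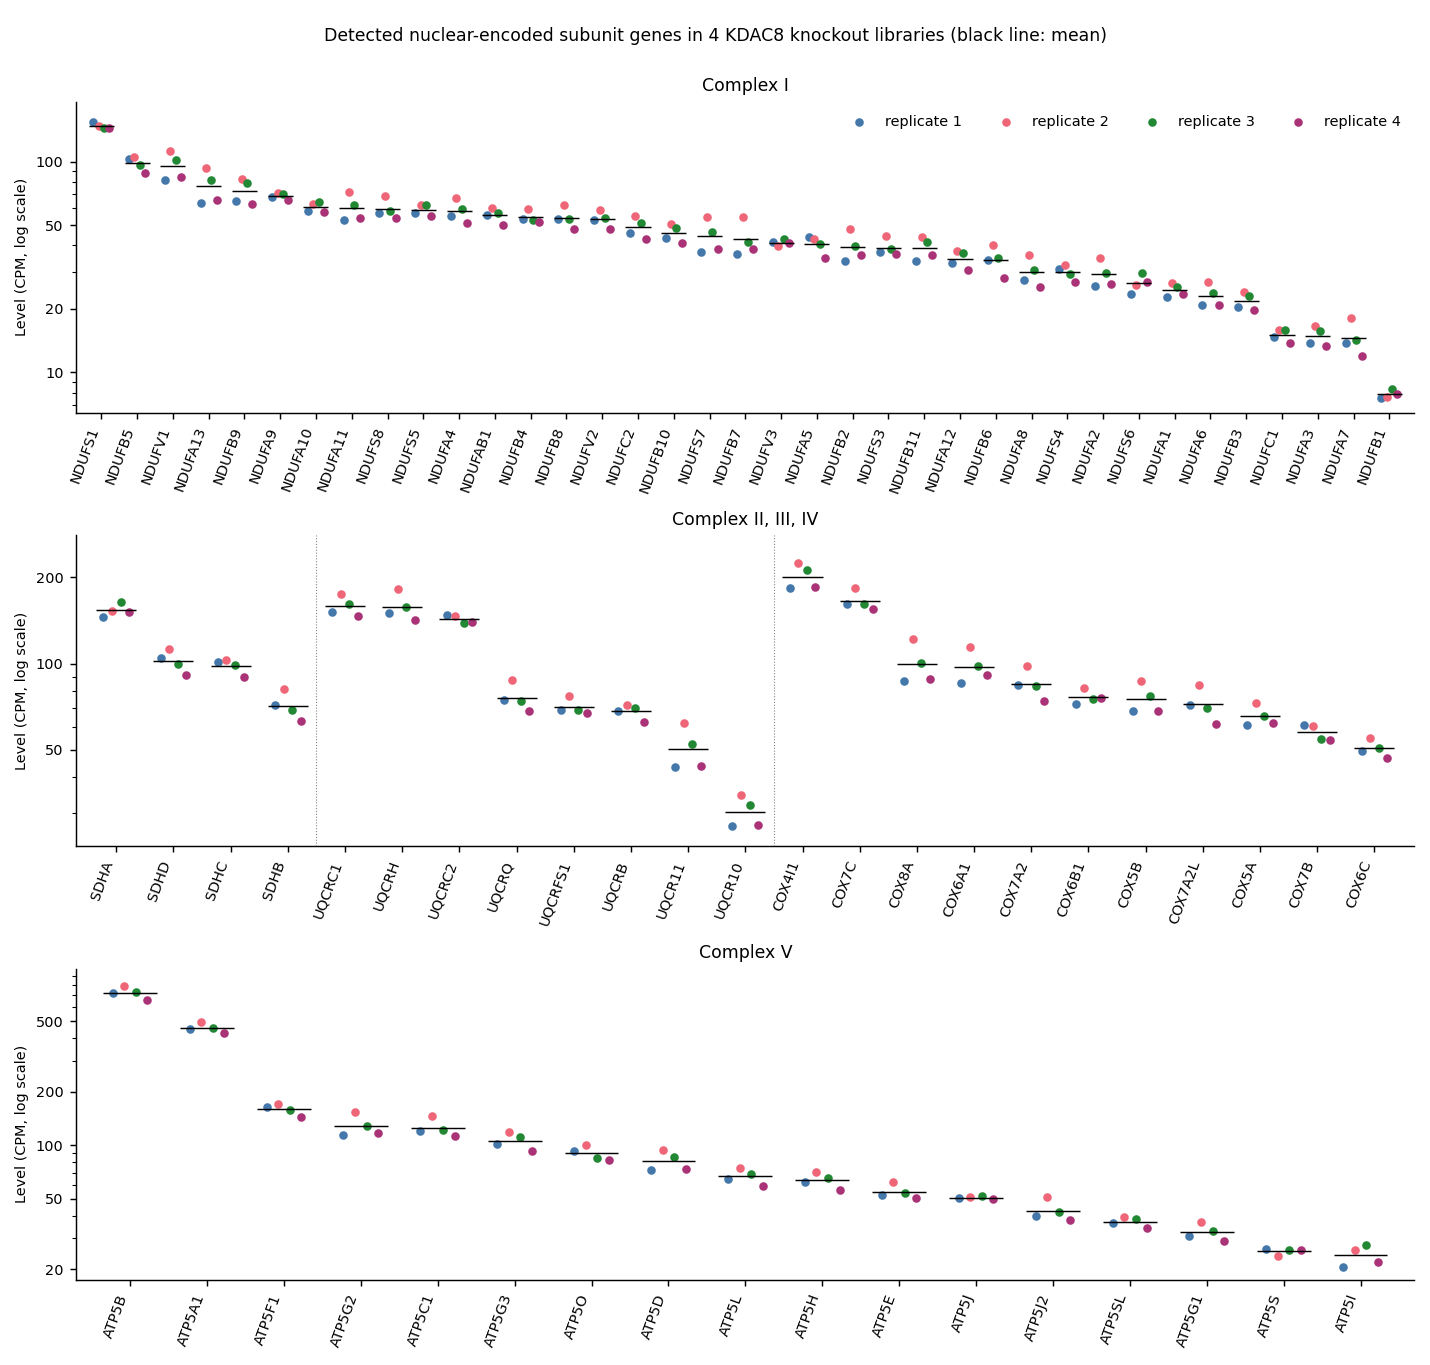
Level of 77 of the 78 detected genes in CPM on a log axis, not divided by length, with complex I above, complexes II, III and IV in the middle row and complex V below. Each point is 1 library and each black line the mean of 4. ATP5B and ATP5A1 stand above the rest of complex V, NDUFB1 is the lowest point of complex I, and the points of replicate 2 lie on top for most genes.

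Some members exist in near-identical copies, and the sequences show how much of a read can tell them apart. ATP5G1, ATP5G2 and ATP5G3 encode the same mature c subunit, the protein that forms the rotating ring of the ATP synthase, behind different import signals. The last 120 coding bases of the principal transcripts, read from GENCODE 29 in the 5′ to 3′ direction, are given with capitals where ATP5G2 or ATP5G3 differs from ATP5G1. ATP5G1 lies at chr17:48892765-48895871 on the forward strand, ATP5G2 at chr12:53632726-53677408 and ATP5G3 at chr2:175176258-175184607, both on the reverse strand (GRCh38).
ATP5G1: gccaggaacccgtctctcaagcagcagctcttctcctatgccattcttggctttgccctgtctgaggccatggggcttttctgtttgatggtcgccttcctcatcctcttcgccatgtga
ATP5G2: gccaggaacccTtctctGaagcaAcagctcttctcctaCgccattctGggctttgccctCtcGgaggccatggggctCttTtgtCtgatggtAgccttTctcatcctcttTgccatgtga
ATP5G3: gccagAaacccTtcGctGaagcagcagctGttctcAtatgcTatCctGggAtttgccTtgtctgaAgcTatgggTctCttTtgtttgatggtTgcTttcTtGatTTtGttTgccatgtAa
In this stretch ATP5G2 differed from ATP5G1 at 13 positions and ATP5G3 at 25, and over the last 228 coding bases the 3 pairs differed at 25 (ATP5G1 and ATP5G2), 43 (ATP5G1 and ATP5G3) and 43 (ATP5G2 and ATP5G3) positions. A read of ordinary length over this stretch crosses several of these differences.

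UQCRH, the acidic hinge protein of complex III, and its copy UQCRHL are closer. UQCRH is at chr1:46303631-46316776 on the forward strand and UQCRHL at chr1:15807169-15809348 on the reverse strand of the same chromosome. Capitals mark where UQCRHL differs in the last 120 coding bases.
UQCRH: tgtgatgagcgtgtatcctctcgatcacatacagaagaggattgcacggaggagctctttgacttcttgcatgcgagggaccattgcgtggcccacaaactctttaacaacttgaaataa
UQCRHL: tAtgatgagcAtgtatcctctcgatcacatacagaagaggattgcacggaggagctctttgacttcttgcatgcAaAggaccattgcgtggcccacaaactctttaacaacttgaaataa
These 4 differences are the only ones in 276 coding bases. UQCRH measured 150.1, 183, 158 and 141 CPM, and UQCRHL 0.0742, 0, 0 and 0.0237 CPM, which is 4 counts in all 4 libraries together. Of 505 stretches of 100 bases in the UQCRH transcript, 15.6% also occur in UQCRHL, and how the authors' counting shared reads of such stretches was not given in the sources used here.

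Complex I, the NADH dehydrogenase, had all 38 of its genes detected. To set genes against each other, CPM was divided by the length in kilobases of the annotated principal transcript. The electron path lies in a core of nuclear-encoded subunits, most of which hold flavin or iron-sulfur clusters. Among the core subunits NDUFS8 stood at 75.2 ± 8.05 CPM per kilobase, NDUFV2 at 57.4 ± 5.02 and NDUFS7 at 42.6 ± 7.63. NDUFS3, a core subunit without such a group, stood at 40.8 ± 3.81, and NDUFV1, the subunit that binds NADH and flavin, at 37.6 ± 5.68. NDUFS1, which holds iron-sulfur clusters, was at 12.5 ± 0.401 CPM per kilobase of an annotated transcript of 11819 bases, although its 147 ± 4.73 CPM was the largest number of counts in the complex. Per kilobase of coding sequence NDUFS1 came to 67.6, close to the 69.2 of NDUFS7 and the 68.2 of NDUFV1, so its place depends on the length used.

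The leading genes of complex I per kilobase of transcript were accessory subunits with short transcripts. NDUFA11, a membrane subunit, measured 52.6, 71.8, 62.0 and 53.8 CPM, or 111 ± 16.5 CPM per kilobase. NDUFS5 measured 56.9, 62.5, 62.3 and 54.9 CPM (108 ± 7.02 per kilobase). NDUFB9 measured 65.0, 82.9, 78.8 and 63.0 CPM (102 ± 13.9 per kilobase). All 3 lay higher in replicates 2 and 3 than in replicates 1 and 4, and NDUFS5 ranged only 1.14 times from replicate 4 to replicate 2. Lowest per kilobase were NDUFA9 at 8.22 ± 0.295, NDUFV3 at 8.83 ± 0.256 and NDUFC1 at 12.0 ± 0.814. In CPM, NDUFA9 measured 67.6, 71.3, 70.05 and 65.8 CPM, NDUFV3 41.6, 39.8, 42.7 and 41.0 CPM and NDUFC1 14.7, 15.9, 15.9 and 13.8 CPM, ranges of 1.08, 1.07 and 1.15 times. Their annotated transcripts run to 8363, 4676 and 1257 bases, against 539, 548 and 711 bases for the leading genes. Per kilobase of coding sequence they came to 60.7, 127 and 66.2, against 142 for NDUFA11, so NDUFV3 then stood close to NDUFA11. By that length NDUFA4 (240), with a transcript of 2130 bases, led, followed by NDUFS5 (186) and NDUFA13 (177). The leading places thus also depend on the length used.

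Complex I also held the 3 genes with the widest range between libraries among the detected members. NDUFA13, an accessory subunit also known as GRIM-19, measured 63.6, 93.6, 82.1 and 65.7 CPM. NDUFB7 measured 36.6, 54.6, 41.7 and 38.4 CPM. NDUFA7 measured 13.8, 18.1, 14.3 and 12.0 CPM. In all 3 genes replicate 2 was the highest library, and the lowest was replicate 1 for NDUFA13 and NDUFB7 and replicate 4 for NDUFA7.

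Complex II, succinate dehydrogenase, is also an enzyme of the citric acid cycle, and per kilobase SDHC stood apart from its other genes. SDHA, the flavoprotein that oxidises succinate, measured 145, 153, 163 and 152 CPM (64.1 ± 3.12 CPM per kilobase). SDHB, the iron-sulfur subunit, measured 71.9, 81.3, 69.1 and 63.0 CPM (61.9 ± 6.62 per kilobase). SDHD, a membrane anchor, measured 105, 112, 99.9 and 91.0 CPM (70.9 ± 6.26 per kilobase). SDHA and SDHB differed per kilobase by less than the SD of SDHB. The mean of SDHD stood above both by more than its SD, but in replicate 4 SDHD was not above SDHA. SDHC, the other anchor, measured 101, 103, 98.5 and 89.8 CPM, and its 7.22 ± 0.418 CPM per kilobase rests on an annotated transcript of 13566 bases. Per kilobase of coding sequence SDHC (193) and SDHD (214) lay together, above SDHB (84.9) and SDHA (77.0).

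In complex III, the cytochrome bc1 complex, UQCRH led by a wide margin at 262 ± 29.5 CPM per kilobase. UQCRQ, a small membrane subunit, measured 74.3, 87.3, 73.8 and 68.5 CPM (90.5 ± 9.55 per kilobase). UQCRC1, a core protein, measured 151, 175, 162 and 147 CPM (79.9 ± 6.43 per kilobase). Both were highest in replicate 2, and per kilobase UQCRQ stood above UQCRC1 in each library while their ranges over libraries overlapped. Lowest were UQCR10 with 27.1, 34.7, 32.1 and 27.3 CPM (33.1 ± 4.09 per kilobase), UQCRFS1, the Rieske iron-sulfur protein, with 68.7, 76.9, 69.0 and 67.2 CPM (20.3 ± 1.26 per kilobase) and UQCRB with 68.4, 71.7, 70.2 and 62.4 CPM (12.2 ± 0.732 per kilobase). Per kilobase of coding sequence UQCRB (205) and UQCR10 (160) stood above UQCRC1 (110), and UQCRFS1 (85.7) was lowest of the detected genes. The most variable gene was UQCR11, a small subunit, at 43.5, 62.2, 52.5 and 43.7 CPM. It lay higher in replicates 2 and 3 than in replicates 1 and 4, which were nearly equal.

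Complex IV, cytochrome c oxidase, had the highest typical level. COX4I1, the largest nuclear-encoded subunit (chr16:85798633-85807044), measured 183, 224, 212 and 185 CPM (230.4 ± 23.1 CPM per kilobase). COX8A measured 87.0, 122, 101 and 88.2 CPM (196 ± 32.3 per kilobase). COX6A1 measured 85.2, 114, 97.7 and 91.4 CPM (169.7 ± 21.6 per kilobase). Per kilobase COX4I1 stood above COX6A1 by more than the SD of either, while COX8A overlapped both. COX6C with 49.6, 55.1, 50.6 and 46.9 CPM (46 ± 3.14 per kilobase), COX7A2L with 71.9, 84.4, 69.9 and 61.7 CPM (23.6 ± 3.07 per kilobase) and COX7B with 61.2, 60.4, 54.6 and 54.0 CPM (23.3 ± 1.54 per kilobase) were lowest. Per kilobase of coding sequence COX7C (875) led and COX5A (145) was lowest of the detected genes. COX7B (240), COX6C (225) and COX7A2L (210) then stood above COX5B (195). COX7A2L is known as an assembly factor of respiratory supercomplexes more than as a subunit.

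Complex V had the widest range, 159 times per kilobase of transcript. By coding sequence it was 11.6 times, against 9.66 times in complex I. The lower end of both was ATP5S, which is no longer counted as a subunit. By coding sequence the first place of complex V rests on ATP5S. Without it and ATP5SL the levels ran from 79.4 (ATP5G1) to 456 (ATP5B). That range is narrower than those of complexes I, III (6.75 times) and IV (6.02 times). ATP5B (now ATP5F1B) measured 721, 787, 732 and 655 CPM (394 ± 29.5 CPM per kilobase), the highest level of all members in CPM and per kilobase of transcript. Per kilobase of coding sequence COX7C (875), UQCRH (579) and COX8A (481) stood above ATP5B (456). ATP5J2, a small membrane subunit, measured 39.8, 51.3, 42.0 and 37.7 CPM (140.0 ± 19.6 per kilobase). ATP5C1, the gamma subunit of the central stalk, measured 121, 145, 122 and 113 CPM (116 ± 13.1 per kilobase). Replicate 2 was the highest and replicate 4 the lowest library for all 3. ATP5A1, the alpha subunit, which pairs with beta in equal number in the enzyme, measured 449, 497, 459.7 and 426 CPM. Its 78.7 ± 5.05 CPM per kilobase used a transcript of 5818 bases, and per kilobase of coding sequence ATP5A1 came to 276 against 456 for ATP5B. ATP5I, another small membrane subunit and one of the most variable genes of the complex, measured 20.6, 25.8, 27.5 and 22.1 CPM, with replicate 3 highest. Lowest per kilobase were ATP5G3 at 19.3 ± 2.03, ATP5E, the epsilon subunit, at 14.9 ± 1.43 and ATP5S at 2.48 ± 0.111. Per kilobase of coding sequence ATP5S stayed lowest of the detected genes of the complex at 39.2, whereas ATP5E (358) came next to ATP5B and ATP5G3 stood at 249. ATP5E measured 52.8, 62.3, 53.8 and 50.2 CPM and ATP5S 26.1, 23.6, 25.6 and 25.9 CPM. ATP5S and ATP5SL (now DMAC2L and DMAC2) are no longer counted as subunits of the enzyme. Per kilobase of coding sequence ATP5SL (48.2) came next above ATP5S, followed by ATP5G1 (79.4).

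Taking each complex by its median detected gene, complex IV had the highest and complex I the lowest level in 4 of 4 libraries. The medians were 35.9 ± 5.31 CPM per kilobase for complex I, 63.0 ± 3.56 for complex II, 46.4 ± 3.67 for complex III, 102.6 ± 9.20 for complex IV and 63.4 ± 6.34 for complex V (SD, n = 4). Complex II and complex V differed by less than their SDs. The first and last places were the same in 4 of 4 libraries when length was taken from all annotated exons, from the shortest equally ranked transcript or from the coding sequence. The order of complexes II, III and V was not: by coding sequence complex III (182.5 ± 15.2) came before V (160.7 ± 18.4) and II (139.2 ± 9.59). In 19 of the 78 genes the longest and shortest equally ranked transcripts differ by over 1.5 times.

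Where a subunit has a tissue-restricted second gene, HT1080 cells used the common one. COX4I1 stood at 201 ± 20.2 CPM and COX4I2, the form known from lung, at 0 counts, so COX4I1 was at least 11408-fold higher in CPM (floor of 3 counts over the 4 libraries). COX6A1 was at least 5505-fold higher than COX6A2, the heart and skeletal muscle form. COX7B was at least 3264-fold higher than COX7B2, and COX8A at least 5643-fold higher than COX8C, both second genes known from testis. COX6B1 measured 72.2, 82.3, 75.3 and 75.6 CPM and its testis form COX6B2 0.217, 0.355, 0.350 and 0.351 CPM, a log2 ratio of 7.89 ± 0.29. COX7A2 measured 84.2, 97.6, 83.1 and 74.3 CPM and its muscle form COX7A1 0.0742, 0.119, 0.0883 and 0.0946 CPM, a log2 ratio of 9.68 ± 0.22. In each of these 6 pairs the first gene was higher in 4 of 4 libraries, with no overlap.

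Among the second-named genes outside the c-subunit and COX7A2L pairs, NDUFA4L2 alone passed detection. NDUFA4, named for complex I and now placed in complex IV, measured 55.3, 67.5, 59.8 and 51.1 CPM. NDUFA4L2, its paralogue induced in low oxygen, measured 2.37, 3.16, 3.82 and 2.63 CPM. The log2 ratio was 4.30 ± 0.25 in CPM and 3.46 ± 0.25 per kilobase. The retrocopies were lower still: ATP5L measured 64.7, 74.8, 69.1 and 59.3 CPM and ATP5L2 9 counts in all, a log2 ratio of 10.28 ± 1.0. These ratios rest on a pseudocount of 0.01 CPM. With 0.5 CPM they became 6.93 for ATP5L over ATP5L2, 7.16 for COX7A2 over COX7A1 and 6.56 for COX6B1 over COX6B2.

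The 3 c-subunit genes were all in use. ATP5G1 measured 30.8, 37.0, 32.8 and 29 CPM, ATP5G2 115, 154, 129 and 117 CPM and ATP5G3 102, 118, 111 and 92.9 CPM. ATP5G1 had fewer counts than ATP5G2 by a log2 ratio of -1.99 ± 0.07, and ATP5G3 slightly fewer than ATP5G2 (-0.28 ± 0.09), in 4 of 4 libraries each. Per kilobase the order of these distances turned over, to -0.32 ± 0.07 for ATP5G1 and -1.77 ± 0.09 for ATP5G3. ATP5G3 exceeded ATP5G1 in CPM (1.71 ± 0.04) and fell under it per kilobase (-1.45 ± 0.04), with annotated transcripts of 5484 bases for ATP5G3 and 614 for ATP5G1. Per kilobase of coding sequence the order was that of CPM, with ATP5G2 at 304, ATP5G3 at 249 and ATP5G1 at 79.4. COX7A2 and COX7A2L lay close together in CPM, at a log2 ratio of 0.24 ± 0.02, and apart per kilobase of transcript, at 1.98 ± 0.02. Per kilobase of coding sequence COX7A2 came to 246 and COX7A2L to 210. Every one of the 13 pairs had the same sign in all 4 libraries. The exact two-sided sign-flip permutation test gave p = 0.13 for each, before and after Benjamini-Hochberg adjustment over the 13 pairs, which is the smallest p that 4 libraries allow.

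**Figure D2:**
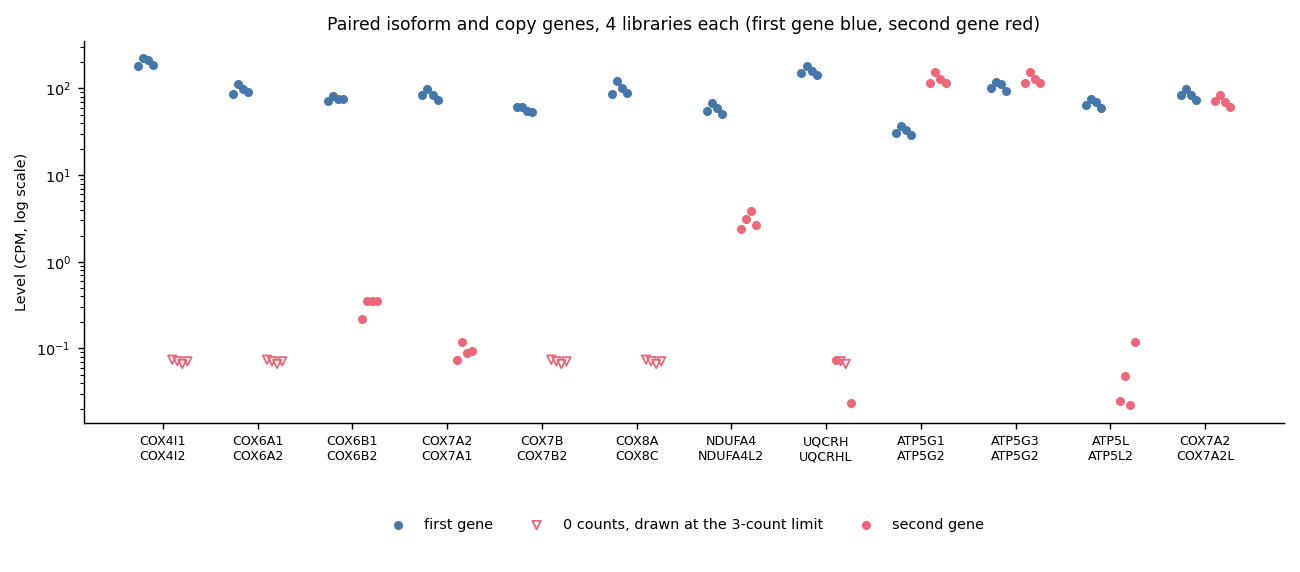
Level in CPM on a log axis of 12 pairs of related genes, 4 libraries each, with the first-named gene in blue and the second in red. Open triangles mark 0 counts and are drawn at the 3-count limit of the library. COX6B2 lies above that limit at 0.217 to 0.355 CPM, and the other tissue-restricted second genes of complex IV lie at or near it. NDUFA4L2 lies at 2 to 4 CPM, and the ATP5G genes and COX7A2 with COX7A2L differ by less than 10 times.

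The libraries differed for most members, but by small amounts. A chi-square test of homogeneity against counting noise, adjusted over all genes with a mean of 10 counts or more, called 73 of 79 tested members, against 59.2% of all tested genes. Deeply read genes are called more readily. Among nuclear protein-coding genes with a mean of at least 10 CPM, 77.7% were called, against 73 of the 77 members in that class. By complex, 35 of 38 tested genes were called in complex I, 4 of 4 in II, 8 of 8 in III, 11 of 12 in IV and 15 of 17 in V. Those not called were NDUFV3, NDUFC1 (adjusted p = 0.0515), NDUFB1, COX6B2, ATP5J and ATP5S. ATP5J, a subunit of the peripheral stalk, was the flattest of these, at 50.1, 51.0, 51.7 and 49.6 CPM. The median detected member had an SD of 0.14 on the log2 scale and a highest library 1.2 times its lowest. When the spread between replicates that edgeR estimates over all genes (coefficient of variation 9.23%) was added to counting noise, 0 of 79 members were called by the same chi-square test, 8 (10.1%) had an unadjusted p under 0.05, against 11.7% of all tested genes, and the lowest was that of NDUFB7. Under that test 4.32% of all genes were called.

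A range of 1.5 times or more was reached by NDUFA7 alone among members that were called. NDUFA7 (chr19:8308768-8321396, reverse strand, GRCh38) ranged 1.51 times between replicate 2 and replicate 4. Of all tested genes 12.3% passed both conditions, and of nuclear protein-coding genes at 10 CPM or more 1.09%. NDUFA7 dropped below 1.5 times with total counts, upper-quartile factors or a library size of coding genes only, and without replicate 2 or without replicate 4. NDUFB7 at 1.49 times and NDUFA13 at 1.47 times lay just under the threshold. In NDUFA7, 71.1% of the 100-base stretches of the principal transcript also occur in another annotated gene that overlaps it, which was at 0 counts in all 4 libraries.

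The small differences ran the same way in nearly all members. Of 77 members with a mean of at least 10 CPM, 65 were highest in replicate 2, against 37.9% of nuclear protein-coding genes in that class. Replicate 4 was the lowest library for 50 of them, against 36.4%. Both held for 45 of the 77, against 21.9%. Of the 78 detected members 74 were higher in replicate 2 than in replicate 4, against 56.7% of all detected genes and 62.5% of the nuclear protein-coding class. The exceptions were NDUFV3, NDUFS6, NDUFB1 and ATP5S. The median deviation of the 78 genes from their own mean was -0.06, 0.16, 0.03 and -0.14 on the log2 scale in replicates 1 to 4. Complexes I, III, IV and V each had their highest median in replicate 2 (0.17, 0.18, 0.16 and 0.16) and their lowest in replicate 4 (-0.14, -0.13, -0.11 and -0.14). Complex II went from 0.11 in replicate 2 to -0.14 in replicate 4, and alone had a positive median in replicate 1 (0.03 against -0.07, -0.05, -0.08 and -0.04). That sign turned to -0.03 without replicate 4, and without replicate 2 complexes III and V were positive too, at 0.02 each. No test of the difference was made.

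**Figure D3:**
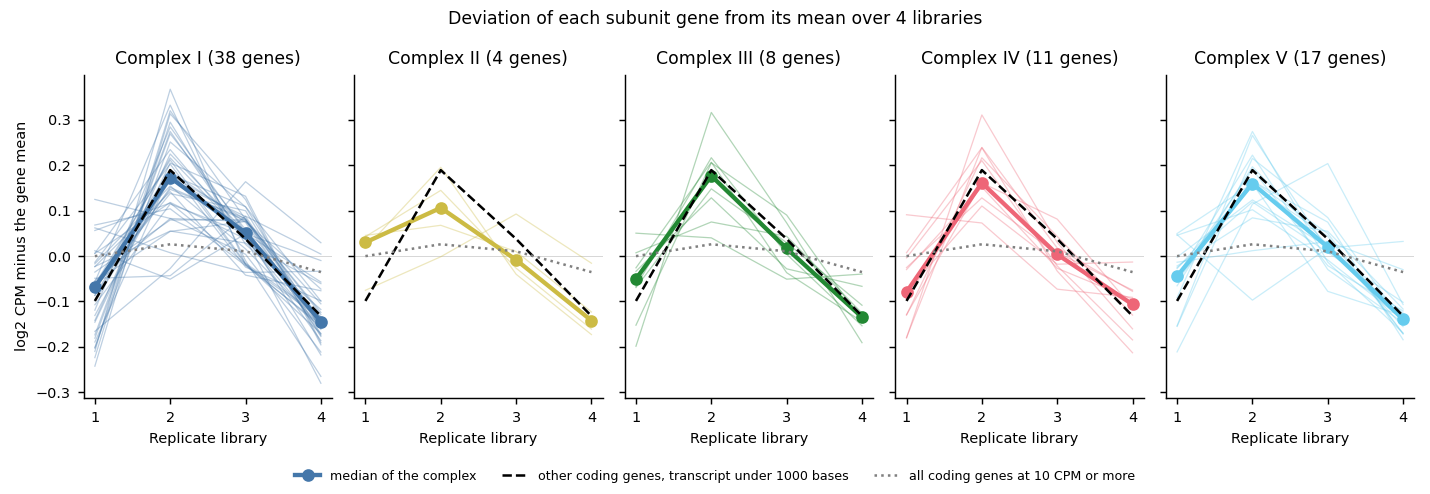
Deviation of each detected gene from its own mean over the 4 libraries (log2 CPM), 1 panel per complex. Thin lines are genes, the thick line is the median of the complex, the dashed line the median of 366 other nuclear protein-coding genes at 10 CPM or more with a transcript under 1000 bases and the dotted line that of all 9200 nuclear protein-coding genes at that level, members included. Lines only join values of 1 gene, since libraries have no order. The complex medians follow the dashed line except for complex II in replicates 1 and 2.

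Short transcripts of other genes moved in the same way, and members are short. The median principal transcript of the detected members was 1090 bases, against 3444 for nuclear protein-coding genes at 10 CPM or more. Under 1000 bases were 36 of 78 members (46.2%), against 4.36% of that class. The 366 genes of the class under 1000 bases that are no members had median deviations of -0.10, 0.19, 0.04 and -0.13, and the 36 members of that length -0.07, 0.20, 0.04 and -0.15. All 9200 genes of the class, 77 members included, had medians of 0.00, 0.03, 0.01 and -0.04. Among these 366 genes 87.7% were highest in replicate 2, against 34 of 35 members of that length at 10 CPM or more, and 63.7% were lowest in replicate 4, against 23 of 35. The 42 members of 1000 bases or more kept the direction (-0.03, 0.14, 0.03 and -0.12), whereas the 8757 other genes of the class of that length stayed at 0.00, 0.02, 0.01 and -0.03. The 4 members that ran the other way from replicate 2 to replicate 4 had transcripts of 4676 (NDUFV3), 1082 (NDUFS6), 528 (NDUFB1) and 10212 bases (ATP5S).

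Base composition went along with it. The 19 members of any length whose transcript holds 55% or more G and C had medians of -0.15, 0.21, 0.08 and -0.14. The 176 other protein-coding genes of that composition under 1000 bases had -0.16, 0.23, 0.06 and -0.14. The 24 members of any length under 45% had 0.00, 0.14, 0.00 and -0.14. The 50 other genes of that composition under 1000 bases had 0.02, 0.12, -0.02 and -0.13. Length was not matched between members and other genes here. So in replicate 1 the members rich in G and C lay below their mean and those poor in them at it. The part of length and composition in the differences between libraries was not tested.

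**Figure D4:**
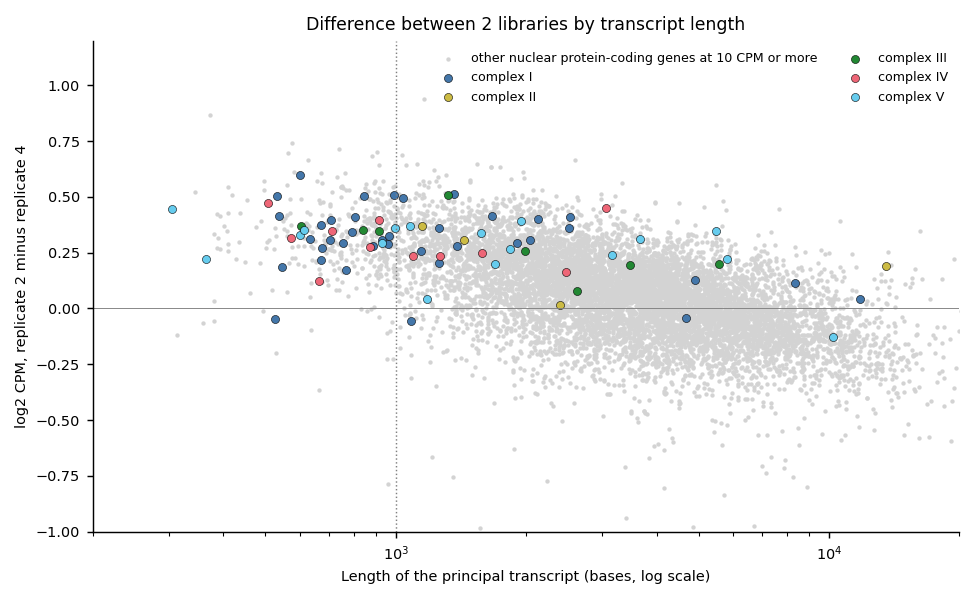
Difference in log2 CPM between replicate 2 and replicate 4 against the length of the principal transcript (log axis), with members coloured by complex and 9123 other nuclear protein-coding genes at 10 CPM or more in grey, of which 25 lie outside the axes. The dotted line is at 1000 bases. Most genes left of that line lie above 0, and 36 of the 78 members are among them in length.

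The mitochondrially encoded partners went the opposite way. All 13 protein-coding genes of mitochondrial DNA, which encode core subunits of complexes I, III, IV and V, had their low in replicate 2 and their high in replicate 4. Their median deviations were 0.08, -0.42, 0.00 and 0.32 on the log2 scale. Summed, they came to 27848, 20653, 26066 and 32005 CPM, against 6150, 7082, 6464 and 5838 CPM for the detected nuclear members. MT-CO1, the catalytic subunit of complex IV, measured 8547, 6883, 7696 and 9148 CPM, while COX4I1 was highest in replicate 2. MT-ND4L, a membrane subunit of complex I, had the widest range at 162, 82.8, 165 and 224 CPM. A low in replicate 2 and a high in replicate 4 were not particular to mitochondrial genes. Among the detected mesenchymal markers FN1 (639, 480, 645 and 768 CPM), CD44, COL6A3 and MMP14 had that order too, whereas VIM was highest in replicate 2. The share of all genes with that order was not counted. The ratio of the median level per kilobase of mitochondrially encoded to nuclear-encoded mRNA was on the log2 scale 5.00 ± 0.57 in complex I, 5.10 ± 0.42 in complex III, 5.29 ± 0.34 in complex IV and 4.37 ± 0.54 in complex V. Replicate 2 gave its lowest and replicate 4 its highest value in each of the 4 complexes. In complex I it went from 4.24 in replicate 2 to 5.59 in replicate 4. The medians rest on 7 mitochondrial genes in complex I, 1 in III, 3 in IV and 2 in V. The 2 of complex V lay far apart, MT-ATP6 at 2611 and MT-ATP8 at 83.8 CPM per kilobase. Their median is the midpoint, so the place of complex V among the ratios rests on both. How the counting shared reads among mitochondrial genes was not given in the sources used here, so levels of single mitochondrial genes are uncertain. Taken as a ratio of summed CPM, complex V turned over (-0.38 ± 0.54), since its nuclear members held more of its counts on average, though not in replicate 4, while complexes I (2.27 ± 0.45), III (1.27 ± 0.42) and IV (3.71 ± 0.33) did not. The mitochondrially encoded mRNAs took 2.85%, 1.99%, 2.58% and 3.28% of all counts. In bulk RNA fewer cells with such transcripts and less of them per cell cannot be told apart. The part of scaling in the opposite movement was not tested.

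**Figure D5:**
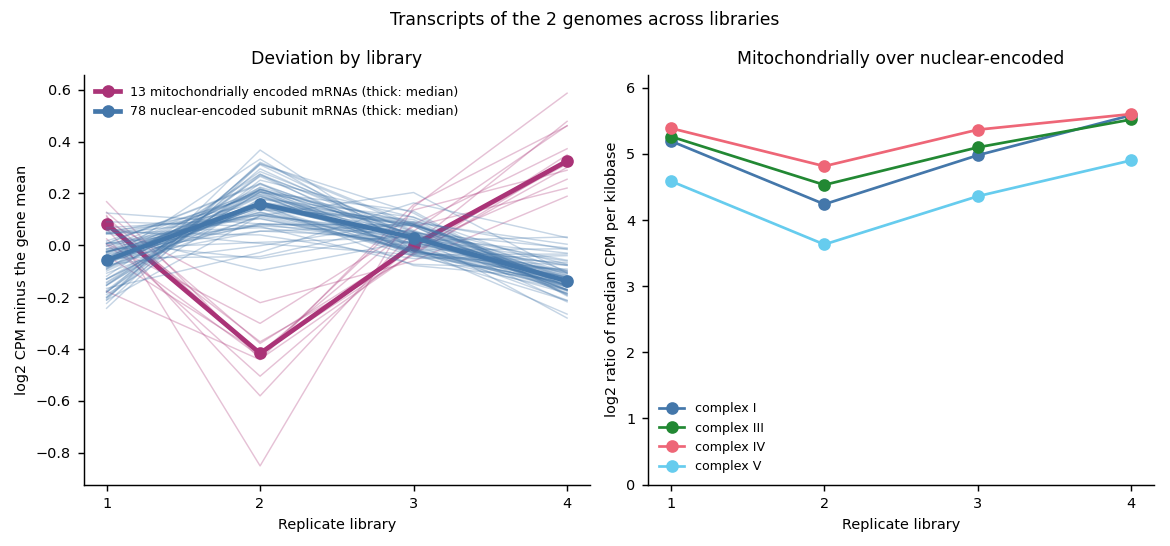
Left, deviation of 13 mitochondrially encoded and 78 nuclear-encoded subunit genes from their own means in each library (log2 CPM, thin lines genes, thick lines medians). Right, log2 ratio of the median CPM per kilobase of mitochondrially over nuclear-encoded mRNAs, by complex. Replicate 2 is the low point and replicate 4 the high point of all 4 ratios.

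Genes that help to build the complexes were all detected, in each of 5 lists of assembly factors. Of 14 factors of complex I, 9 varied between libraries by the chi-square test, against the same 59.2% of all tested genes. Among nuclear protein-coding genes at 10 CPM or more 77.7% varied. Both shares are also the background for the other lists of factors. TIMMDC1 (115 ± 10.1 CPM), ACAD9 (45.1 ± 4.32 CPM) and NDUFAF3 (44.7 ± 6.25 CPM) had the most counts, NDUFAF6 (9.0 ± 0.298 CPM) the fewest, and NDUFAF3 was the most variable. Of 4 factors of complex II, 3 varied: SDHAF1 at 7.13 ± 1.29 CPM, SDHAF2 at 23.5 ± 1.61 CPM and SDHAF3 at 10.1 ± 1.42 CPM did, and SDHAF4 at 3.41 ± 0.172 CPM did not pass the test. For complex III 5 of 6 varied, with TTC19 (149.7 ± 5.89 CPM), LYRM7 (50.9 ± 3.53 CPM) and UQCC1 (39 ± 0.995 CPM) highest, UQCC3 (15.2 ± 1.81 CPM) lowest and UQCC2 (28.1 ± 3.66 CPM) most variable. For complex IV 14 of 22 varied. SCO1 (84.2 ± 1.77 CPM) and COA1 (76.8 ± 4.6 CPM) led with COX15 (57.1 ± 2.68 CPM), PET117 (8.38 ± 0.606 CPM) was lowest, and COX14 at 15.6, 23.1, 20.1 and 14.1 CPM was the most variable, highest in replicate 2 and lowest in replicate 4. For complex V 3 of 4 varied: ATPAF1 (34.7 ± 2.26 CPM), ATPAF2 (9.99 ± 1.11 CPM) and C7orf55, now FMC1 (5.20 ± 0.978 CPM), while TMEM70 (22.8 ± 1.23 CPM) did not pass. The median deviations of these 5 lists in replicate 2 were 0.12, 0.10, 0.11, 0.09 and 0.17 in the order of the complexes.

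Of 14 regulators of mitochondrial transcription and biogenesis, 13 were detected and 11 varied, against 59.2% of all tested genes and 77.7% of nuclear protein-coding genes at 10 CPM or more. LRPPRC, which stabilises mitochondrial mRNAs, stood at 260.3 ± 7.23 CPM, YY1 at 131 ± 6.47 CPM and TFAM, which packages mitochondrial DNA, at 130.4 ± 9.86 CPM. TEFM was the lowest detected factor at 11.3 ± 0.785 CPM. PPARGC1A, the coactivator known from muscle and brown fat, was the exception, at 0.717, 1.38, 0.751 and 1.09 CPM, below 1 CPM in replicates 1 and 3. PPARGC1B (27.0 ± 2.34 CPM), the most variable of the detected genes of this list, and PPRC1 (103 ± 3.33 CPM) were both detected. NRF1 (16.3 ± 0.585 CPM) and GABPA (62.9 ± 4.81 CPM), factors known to bind promoters of respiratory genes, were both present, and of this pair GABPA alone varied by the test.

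Promoter sequences of 64 of the 78 detected members were found in a RefSeq table (GRCh38.p14) that covers 250 bases before to 50 after each start. They were searched on both strands for 3 short motifs, of which the ETS motif ends and the YY1 motif begins with AAG, so that these can overlap. The NRF1 motif, GCGCA and GCGC with 1 base of any kind between them, was in 15 of 64 (23.4%), against 6.28% of all 27305 promoters in the table and 13.2% of those of nuclear protein-coding genes at 10 CPM or more. The ETS motif CCGGAAG, which GABPA can bind, was in 19 (29.7%), against 10.7% and 22.4%. The YY1 motif AAGATGGC was in 11 (17.2%), against 3.03% and 6.50%. By complex, the NRF1 motif was in 6 of 32 promoters of complex I, 2 of 3 of II, 4 of 7 of III, 0 of 10 of IV and 3 of 12 of V, and the ETS motif in 5 of 10 of complex IV: COX4I1, COX5B, COX6A1, COX6B1 and COX8A. At least 2 of the motifs were present in 9 promoters and none in 28. NDUFA7 held the YY1 motif and NDUFB7 the ETS motif. A match is a description of letters and not a bound site.

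The NRF1 match is shown for NDUFB4 and NDUFA12, the 2 of 13 windows upstream of a start that overlapped no annotated exon. Each reads 5′ to 3′ in the sense of the gene (RefSeq, GRCh38), with the motif in capitals. The NDUFB4 window is chr3:120596248-120596307 on the forward strand, and its motif begins 63 bases before the start. The NDUFA12 window is chr12:95003779-95003838 on the reverse strand, with the motif beginning 116 bases before the start.
NDUFB4: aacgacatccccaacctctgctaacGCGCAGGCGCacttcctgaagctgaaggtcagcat
NDUFA12: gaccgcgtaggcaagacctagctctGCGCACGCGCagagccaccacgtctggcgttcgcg
NDUFB4 measured 53.4, 59.9, 52.7 and 51.5 CPM and NDUFA12 32.8, 37.8, 36.8 and 30.5 CPM, both highest in replicate 2 and lowest in replicate 4.

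Many members have a close neighbour on the other strand. A divergent coding gene began within 1000 bases of 37.2% of the detected members, against 19.3% of nuclear protein-coding genes at 10 CPM or more. Exons of 33 members overlap a gene on the other strand and those of 23 another gene on the same strand. Whether the counting used strand was not given in the sources used here, so reads of these genes are uncertain. In 40 of the 78 no 100-base stretch of the principal transcript occurred in a transcript of another gene, in 12 over 20% of stretches did, and in 6 over 50%: NDUFV2 (80.9%), NDUFB2 (76.1%), NDUFA7, ATP5O (67.1%), NDUFB8 (67.0%) and NDUFA11 (59.8%). For NDUFB2 these stretches lie in BRAF, a gene that overlaps it on the other strand and stood at 51.9 ± 3.42 CPM, and in an antisense RNA. For NDUFV2 they lie in an overlapping row at 0 counts and in the pseudogene NDUFV2P1 at 0.0207 ± 0.0235 CPM. Pseudogene rows took few reads in all: 76 of the 93 dropped rows were at 0 in every library, and the 93 together held 0.0374% of the members' counts. The 5 with the most counts were UQCRFS1P1 at 1.56 ± 0.224 CPM, which was the only one detected, ATP5HP4 at 0.190 ± 0.104 CPM, ATP5EP2 at 0.174 ± 0.0895 CPM, ATP5G1P4 at 0.142 ± 0.101 CPM and ATP5C1P1 at 0.0710 ± 0.0516 CPM.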

How the data were processed

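RNA-seq of 4 KDAC8 knockout libraries was analysed. The submitters' processing notes name Trimmomatic 0.39, Bowtie2 2.5.4, RSEM 1.3.3, DESeq2 1.46.0 and GRCh38. Their roles, the annotation and the strand setting were not given in the sources used here. Deposited by the authors were unscaled expected counts per Ensembl gene, which can share reads among similar genes. Of their values 10.6% to 11.9% per library were not whole. The unit was read from the values.

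Counts were rounded for the test. CPM used TMM effective library sizes (edgeR 4.0.16). Lengths and positions came from GENCODE 29, which held 94.0% of the gene IDs. Differences between libraries were tested gene by gene, by chi-square (3 degrees of freedom, mean of 10 counts or more, Benjamini-Hochberg over all genes, 0.05), checked on simulated data. Log ratios used a pseudocount of 0.01 CPM. Detection was 1 CPM in all libraries. Shared sequence was counted in stretches of 100 bases. Values in every library were given for the 3 highest and 3 lowest detected members of each complex per kilobase, its 2 most variable and the paired genes. In other lists the 3 highest, the lowest and the most variable were named, and all genes of lists of 4 or fewer. The level of 1 detected member is not reported here. Members and lists were chosen with earlier results of these data known. Alternatives covered scaling, thresholds, length, noise model and single libraries. Python 3.11.15 (SciPy 1.17.1, pandas 2.3.3) and R 4.3.3 were used.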

Additional observations from a re-analysis of the deposited data

How the results depend on the processing

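With 78 members detected and 73 called as varied, these counts kept within 1.5 times under every other scaling, threshold, filter and rounding, and without any single library (78 detected, 67 to 73 varied). Only the noise model with edgeR's common dispersion ended the calls, at 0. The count with a range of 1.5 times, 1 as reported, was 0 with total counts, upper-quartile factors, a coding-only library size or that noise model (added after the data were seen), and 0 to 1 without single libraries. Median levels per kilobase of complexes I to V became 18.3, 23.6, 29.3, 46.4 and 23.9 with all annotated exons. With coding length they were 89, 139.2, 182.5, 251.0 and 160.7, and with the shortest equally ranked transcript 42.6 (I), 67.3 (III), 129 (IV) and 96.8 (V). Both of these lengths were chosen after seeing the data. With all members above 0, complex III stood at 38.1 and IV at 92.8. With genes placed by the structure of the complexes, complex I stood at 36.4 and V at 68.4. Without single libraries the medians ran from 33.9 to 37.0 (I), 62.3 to 63.8 (II), 45.3 to 47.1 (III), 99.4 to 103.8 (IV) and 61.7 to 65.1 (V). By summed CPM the log2 ratios of mitochondrially to nuclear-encoded mRNA were 2.27, 1.27, 3.71 and -0.38 for complexes I, III, IV and V, the last of them reversed. With a pseudocount of 0.5 CPM the 13 pair ratios kept their sign, and those against a second gene below detection came down, for example to 6.56 (COX6B1 over COX6B2). ATP5G3 over ATP5G1 reversed per kilobase of transcript (-1.45) but not per kilobase of coding sequence (249 against 79.4). The shifts with length follow from the lengths themselves. All 200 recomputed median deviations and 624 recomputed member levels moved by less than the spread between replicates. No paired analysis was possible because the labels give only 1 group. None of 87 values checked had 1 library far apart from the other 3. Depth bounds what can be said of the 8 undetected members.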

Other observations

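Respiratory proteins outside the name rule were also present. CYCS, the soluble cytochrome c, measured 141, 139.5, 139 and 131 CPM. CYC1, the cytochrome c1 of complex III, measured 117, 162, 142 and 124 CPM, highest in replicate 2 like most members and lowest in replicate 1. HIGD1A had 83.8 ± 7.75 CPM, ATPIF1, the inhibitor of the ATP synthase, 13.1 ± 1.52 CPM, and NNT, the transhydrogenase of the inner membrane, a flat 30.9, 30.5, 30.5 and 31.9 CPM. Of 11 such genes all were detected and 8 varied between libraries by the chi-square test, against 59.2% of all tested genes and 77.7% of nuclear protein-coding genes at 10 CPM or more. Of the 11, 5 were highest in replicate 2, against 37.9% of that class, and NDUFA4L2 was both the lowest and the most variable.

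A pair of small ATP synthase subunits carry older names in the table that the rule does not match, and they were looked up after the other values were seen. USMG5 (now ATP5MK) measured 67.8, 69.4, 61.7 and 56.0 CPM and C14orf2 (now ATP5MJ) 46.8, 48.7, 47.4 and 42.0 CPM. Both were highest in replicate 2 and lowest in replicate 4.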
